A study of Mus musculus with 6 samples.

Results

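Neurexins, neuroligins and their relatives form the adhesion bridges that align the secretory and receiving sides of a synapse, and beta cells use many of the same proteins at the membrane where insulin granules dock. The genes described here are 8 such adhesion genes: the neurexins Nrxn2 and Nrxn3, the neuroligins Nlgn1, Nlgn2 and Nlgn3, the immunoglobulin superfamily members Cadm1 and Ncam1, and Igsf21, a neurexin-binding adhesion molecule. They were chosen by name, with every array probe whose RefSeq accession belongs to them, which gave 18 probes for 8 of the 45616 genes and transcripts on the arrays. Igsf21 was included because it differed between the 2 populations on these same arrays, so its difference is described without a test.

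The cells came from P1 islets of Wnt4eGFPCre; mTmG pups. These carry a targeted Wnt4 allele that expresses a GFP-Cre fusion, and a reporter that turns Cre activity into lasting membrane GFP. GFPpositive cells (Wnt4hi, replicates 2, 3 and 4) and GFPnegative cells (Wnt4low, replicates 1, 3 and 4) were sorted by FACS, with 3 arrays per population and the islets of 3 or 4 pups pooled for each array. The reporter marks cells that had expressed Wnt4 at any time since its onset, and Wnt4low holds cells without this mark, so both populations are mixtures. One legend of the study names the Wnt4low side as lacking the Wnt4eGFPCre allele, while the sort is described for islets that carry both alleles, so whether the populations shared all alleles is not settled here. Wnt4 encodes a secreted WNT ligand. Its own probe was higher in Wnt4hi, at 10.83 ± 0.34 against 9.76 ± 0.41 (mean log2 intensity ± SD, n = 3, limma adjusted p = 0.212). There was no overlap between the arrays, as for 9.22% of all probes with Wnt4hi above.

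Between 70.5% and 79.5% of the spots of an array were well above background, and with 3 arrays per population the spread between arrays sets the precision. The insulin genes Ins1 and Ins2 and glucagon were well above background on all 6 arrays. Endothelial markers set the populations apart: 12 of 12 were lower in Wnt4hi (limma, unadjusted p below 0.05), their summed intensity was 5620 to 8877 in Wnt4hi and 40200 to 73681 in Wnt4low, and Tek and Tie1 were well above background on 0 Wnt4hi arrays. Of the mesenchyme and pericyte markers 7 of 12 were lower, with sums of 40906 to 86380 against 104352 to 143756. Beta cell markers were higher for 6 of 10 genes, and alpha cell markers for 3 of 8, with alpha sums of 62388 to 110193 in Wnt4hi and 11029 to 60372 in Wnt4low, the lowest of them on the array of Wnt4low replicate 1. At this unadjusted threshold, 5.02% of all genes and transcripts were higher and 5.53% lower. In such sorted bulk samples, fewer cells of a type and less RNA per cell cannot be told apart. In the normalized table of the authors, the column labelled Wnt4hi replicate 2 correlated over probes at 0.271 with that sample's scanner file. Its correlation with the file of Wnt4hi replicate 3 was 0.287, and the other 5 columns reached 0.843 to 0.872 with their own files. Whether that column or that file holds another sample was not settled. The differences of the main member probes are therefore also given without this array.

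**Figure D1:**
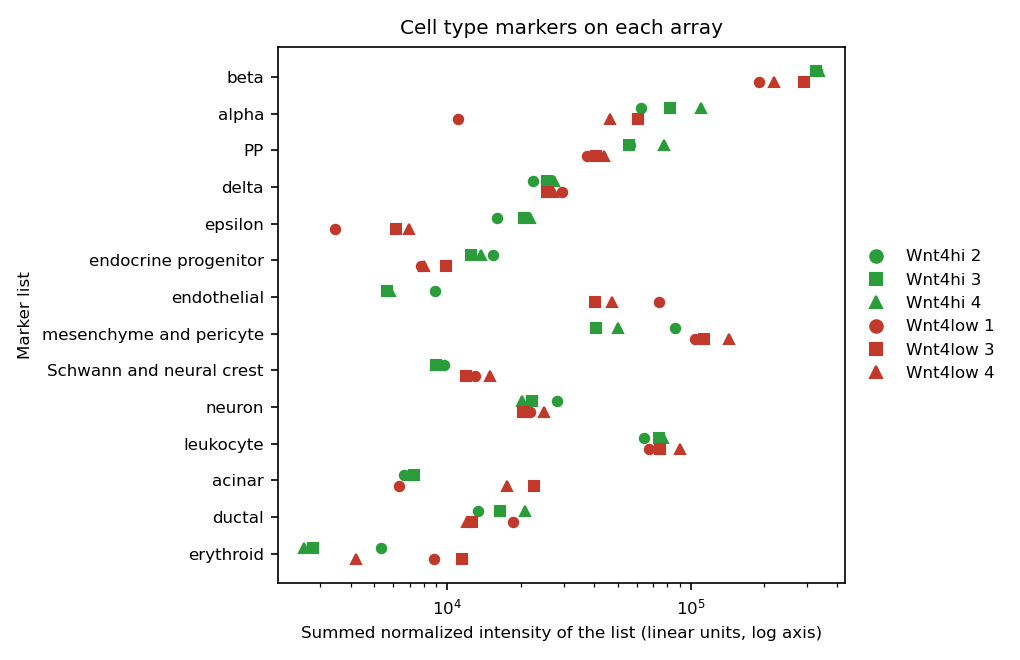
Summed normalized intensity (linear units on a log axis) of each cell type marker list, 1 point per array, with Wnt4hi arrays in green and Wnt4low arrays in red and the replicate given by the symbol. The endothelial sums of the Wnt4hi arrays (5620 to 8877) lie below all Wnt4low sums (40200 to 73681), and the Wnt4low replicate 1 array has the lowest alpha sum (11029).

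IGSF21 binds neurexin-2alpha on the opposing membrane and promotes inhibitory presynaptic terminals in the brain. The region upstream of Igsf21 is shown because Igsf21 separated the populations on all arrays, and that of Nlgn2 because it is the other postsynaptic member with both an entry and a level well above background. The RefSeq promoter table (build GRCm38.p6, 250 bases before to 50 bases after each start) matched 4 of the 8 genes, with Nrxn2, Nlgn3, Cadm1 and Ncam1 as missing entries. Both windows lie on the minus strand, at chr4:140246762-140247061 for Igsf21 and chr11:69837735-69838034 for Nlgn2, and are written 5′ to 3′ with each GC box (GGGCGG on either strand) in capitals.
Igsf21: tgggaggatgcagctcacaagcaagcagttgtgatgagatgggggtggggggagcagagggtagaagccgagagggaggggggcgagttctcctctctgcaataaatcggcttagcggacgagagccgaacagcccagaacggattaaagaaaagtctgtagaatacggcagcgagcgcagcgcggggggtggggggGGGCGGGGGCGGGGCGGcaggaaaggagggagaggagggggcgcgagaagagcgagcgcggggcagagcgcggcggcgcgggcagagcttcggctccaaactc
Nlgn2: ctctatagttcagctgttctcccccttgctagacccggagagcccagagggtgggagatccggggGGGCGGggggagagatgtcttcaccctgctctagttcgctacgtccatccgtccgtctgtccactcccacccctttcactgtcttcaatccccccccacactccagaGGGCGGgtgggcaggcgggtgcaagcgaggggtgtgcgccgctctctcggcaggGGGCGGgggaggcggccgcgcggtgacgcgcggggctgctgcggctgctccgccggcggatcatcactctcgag
Each window held 3 GC boxes, which form 1 unbroken run in Igsf21, while 35.7% of all 32851 promoter windows hold at least 1. Each held 26 CpG dinucleotides against a median of 7 over all windows, and 65.7% and 68.7% G or C against a median of 52.7%. An E-box (CANNTG, its own reverse complement) occurred 1 time in each, as in 72.3% of windows, and the letters TATAAA (13.6% of windows, both strands) and TAATTA (5.29%) were not found. The 2 windows of Nlgn1 held 0 GC boxes, and of the 3 windows of Nrxn3 only the one at chr12:88953140-88953439 held 1. These matches describe the letters alone.

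Igsf21 was measured by a single probe, which was well above background on all 6 arrays. Its log2 intensity was 10.28, 10.20 and 10.45 in Wnt4hi replicates 2, 3 and 4, and 8.56, 8.74 and 8.44 in Wnt4low replicates 1, 3 and 4. The lowest Wnt4hi array was thus above the highest Wnt4low array, and the values within a population lay close together (SD 0.13 and 0.15, n = 3 each). The difference was 1.73 ± 0.15 (log2, SE), or 3.32-fold. It was 1.66 to 1.81 when any 1 array was left out, and 1.75 without Wnt4hi replicate 2.

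The neurexins are presynaptic receptors, and their long alpha forms bind neurexophilins and IGSF21. Nrxn2 has 3 probes, numbered by their mean level (A_55_P1954067, A_55_P1954061 and A_55_P2932318), and the first pair carries the same accession. Nrxn2 probe 1 read 13.12, 12.69 and 12.69 in Wnt4hi and 12.59, 12.89 and 11.96 in Wnt4low, with overlapping arrays and a difference of 0.35 ± 0.28 (n = 3 each, adjusted p = 0.753). Nrxn2 probe 2 read 8.38, 9.02 and 9.21 in Wnt4hi and 9.97, 9.78 and 10.80 in Wnt4low. All Wnt4hi arrays were below all Wnt4low arrays on this probe, and the difference was -1.32 ± 0.34 (adjusted p = 0.217). Probe 2 passed the unadjusted threshold of 0.05 (limma), and did so with any 1 array left out (-1.52 to -1.01). Within an array, probe 1 minus probe 2 was 3.48 to 4.74 in Wnt4hi and 1.16 to 3.11 in Wnt4low, so both probes of this accession moved unequally between the populations. Nrxn2 probe 3, for another accession, was well above background on 2 Wnt4hi arrays and 1 Wnt4low array.

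Nrxn3 has 4 probes, none past the unadjusted threshold. Its probe 1 read 8.40, 8.41 and 7.76 in Wnt4hi and 8.71, 7.93 and 8.07 in Wnt4low, a difference of -0.05 ± 0.29 (adjusted p = 0.974) whose sign changed with the processing. Nrxn3 probe 2 read 7.80, 7.88 and 7.84 against 7.65, 7.60 and 7.63. Its arrays did not overlap, but the difference was 0.21 ± 0.12 (adjusted p = 0.627). Nrxn3 probe 3 was well above background on 1 array of each population and probe 4 on 0 of 6. The 95% confidence interval of probe 1 ran from -0.75 to 0.65.

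**Figure D2:**
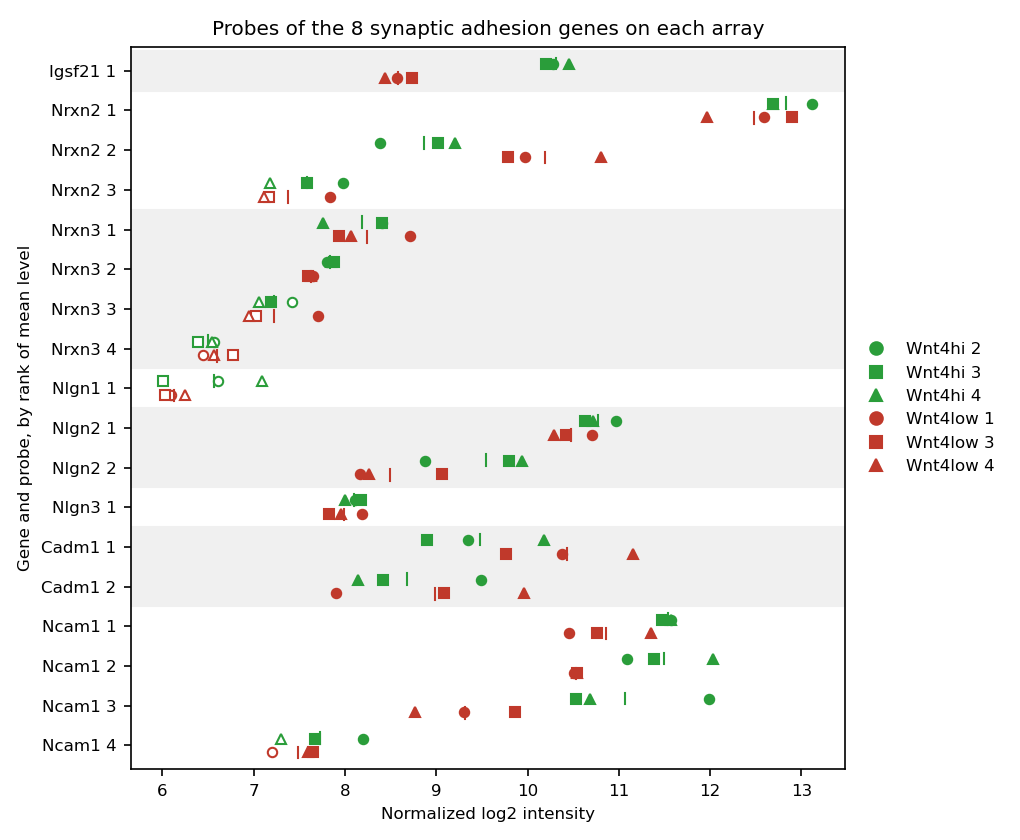
Normalized log2 intensity of each probe of the 8 genes on each array, with Wnt4hi in green above and Wnt4low in red below, short vertical lines at the means, and open symbols where the probe was not well above background. Probes are numbered within a gene by their mean level. Igsf21 separates the arrays (10.20 to 10.45 against 8.44 to 8.74), whereas the probes of Nlgn1 and Nrxn3 probe 4 are open on all 6 arrays.

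Neuroligins are the postsynaptic receptors of neurexins, with NLGN2 at inhibitory, NLGN1 at excitatory and NLGN3 at both kinds of synapse. Nlgn2 probe 1 (A_55_P1960989) read 10.97, 10.63 and 10.72 in Wnt4hi and 10.71, 10.43 and 10.28 in Wnt4low, with overlapping arrays and a difference of 0.30 ± 0.18 (adjusted p = 0.647). Nlgn2 probe 2 (A_66_P116471) read 8.88, 9.80 and 9.94 in Wnt4hi and 8.17, 9.07 and 8.26 in Wnt4low. On probe 2 the lowest Wnt4hi array, replicate 2, lay below the highest Wnt4low array, replicate 3, and the difference was 1.04 ± 0.37 (adjusted p = 0.375). Probe 2 passed the unadjusted threshold, but this call was lost without Wnt4hi replicate 3 or 4 or Wnt4low replicate 1 or 4 (0.84 to 0.92). Without Wnt4hi replicate 2 the difference was 1.37. With both probes averaged, Nlgn2 differed by 0.67 and passed the unadjusted threshold.

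Nlgn3, with 1 probe, read 8.11, 8.18 and 7.999 in Wnt4hi and 8.19, 7.82 and 7.95 in Wnt4low. The arrays overlapped, and the difference was 0.11 ± 0.15 (95% confidence interval -0.26 to 0.48, adjusted p = 0.876). The single Nlgn1 probe was not well above background on any of the 6 arrays, at 6.61, 6.01 and 7.09 against 6.09, 6.03 and 6.25, so that no fold is given. Of the 11 other genes on the list of postsynaptic neurexin ligands, 7 exceeded background clearly on each of the arrays, and 0 were higher and 2 lower at the unadjusted threshold (limma), where 5.02% and 5.53% of all genes and transcripts were called.

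CADM1 (SynCAM1) and NCAM1 are homophilic adhesion molecules of neurons and endocrine cells. Cadm1 probe 1 (A_51_P478061) read 9.34, 8.90 and 10.18 in Wnt4hi and 10.37, 9.76 and 11.15 in Wnt4low. Its arrays overlapped, and the difference was -0.96 ± 0.46 (adjusted p = 0.543). It missed the unadjusted threshold, and passed it without Wnt4hi replicate 4 (-1.31) or Wnt4low replicate 3 (-1.29), and in the fit with a fixed replicate block (-0.92). That fit takes the difference from the arrays numbered 3 and 4 alone. Cadm1 probe 2 (A_55_P2114118), of the same accession, differed by -0.30 ± 0.60 (adjusted p = 0.916), with arrays from 8.14 to 9.49 in Wnt4hi and from 7.90 to 9.96 in Wnt4low.

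Ncam1 was the member besides Igsf21 whose probes were most often higher in Wnt4hi. Ncam1 probe 1 (A_51_P380309) read 11.57, 11.47 and 11.57 in Wnt4hi and 10.46, 10.76 and 11.35 in Wnt4low, and differed by 0.68 ± 0.24 (adjusted p = 0.377). Ncam1 probe 2 (A_52_P613255) read 11.09, 11.38 and 12.03 against 10.50, 10.54 and 10.54, and differed by 0.97 ± 0.25 (adjusted p = 0.215). Ncam1 probe 3 (A_55_P2028942) read 11.99, 10.53 and 10.68 against 9.30, 9.87 and 8.77, and differed by 1.75 ± 0.47 (adjusted p = 0.227). All 3 probes passed the unadjusted threshold, and on each of them all Wnt4hi arrays were above all Wnt4low arrays. The difference of probe 3 was 1.29 without Wnt4hi replicate 2. Probes 2 and 3 passed the unadjusted threshold with any 1 array left out, whereas probe 1 missed it without any 1 array (0.48 to 0.71) except Wnt4low replicate 4 (0.93), and also with cyclic loess (0.66), in the fit with a fixed replicate block (0.46) and by the methods' t-test. Ncam1 probe 4 (A_55_P2050602) was well above background on 2 arrays of each population and differed by 0.24 ± 0.27 (adjusted p = 0.834).

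**Figure D3:**
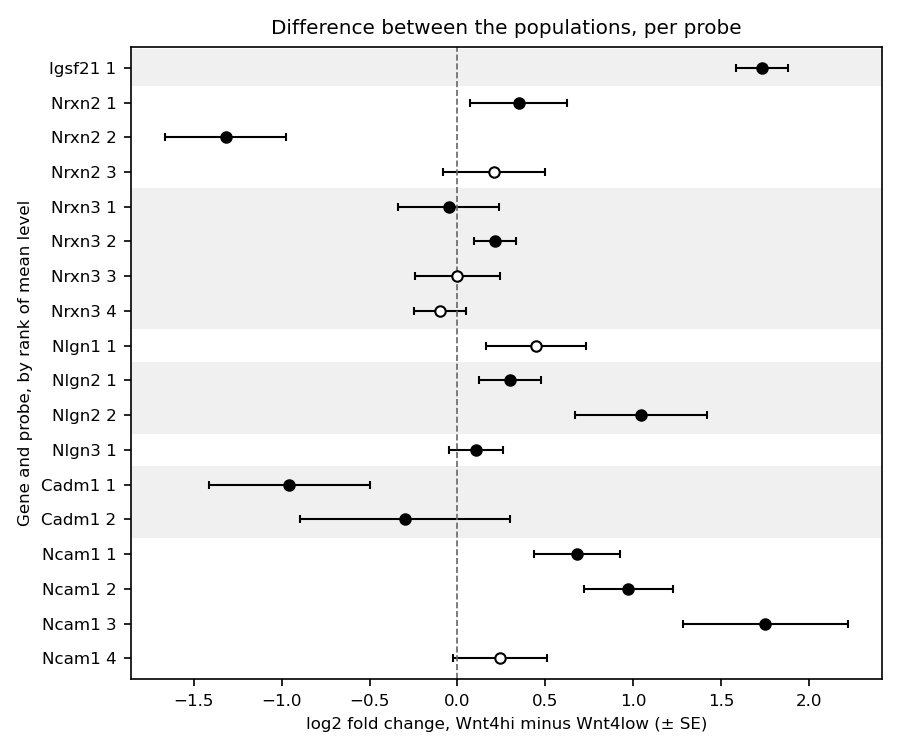
Difference in log2 intensity between Wnt4hi and Wnt4low (points, with bars of ± SE from the limma fit, n = 3 arrays per population) for the 18 probes, with open points where a probe was not well above background on all 6 arrays. Igsf21 (1.73) and Ncam1 probe 3 (1.75) lie farthest to the right and Nrxn2 probe 2 (-1.32) farthest to the left.

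Well above background on all 6 arrays were 13 of the 18 probes, and 2 were so on none. Leaving out Igsf21, 4 of 17 probes were higher (3 of Ncam1 and 1 of Nlgn2) and 1 was lower (Nrxn2 probe 2) at an unadjusted p below 0.05, where 4.84% and 6.15% of all 56605 probes were called. The arrays did not overlap for 4 of these 17 probes with Wnt4hi above (9.22% of all probes) and for 1 with Wnt4hi below (7.14%). None of the 17 passed the adjusted p of 0.05 (limma), which 0.475% of all probes did. The 4 probes that were higher come from 2 genes, so they are not independent of each other. Without Wnt4hi replicate 2, the difference was 0.21 for Nrxn2 probe 1, -1.07 for Nrxn2 probe 2, -0.16 for Nrxn3 probe 1 and 0.10 for Nlgn3. It was then 0.20 for Nlgn2 probe 1, -0.89 for Cadm1 probe 1, and 0.66 and 1.18 for Ncam1 probes 1 and 2.

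**Figure D4:**
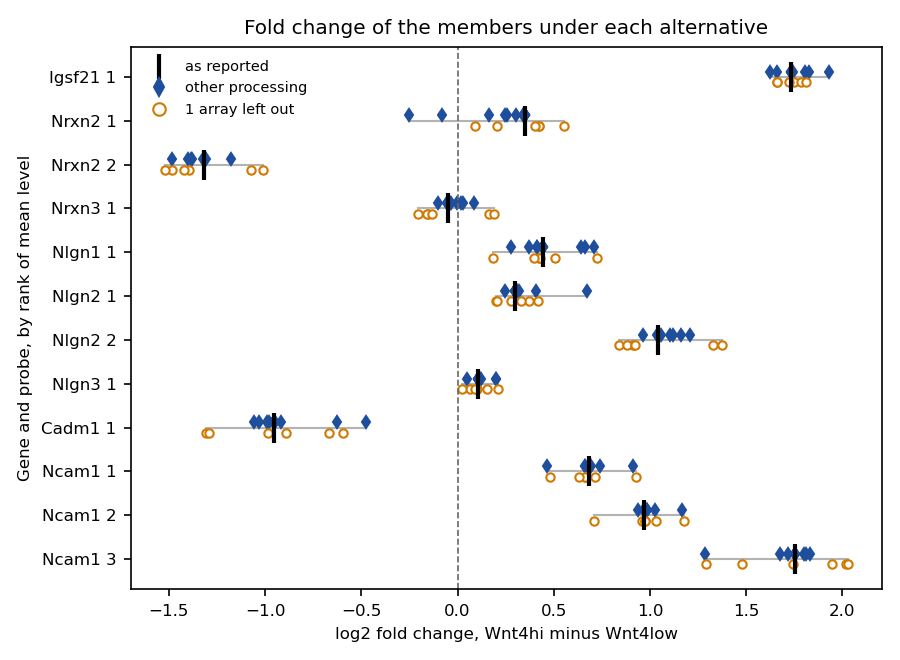
Difference in log2 intensity between Wnt4hi and Wnt4low for the reported value (black bars), for the other processing choices (blue diamonds) and with 1 array left out (open orange circles). Points are for the leading probe of each gene and the other probes with an unadjusted p below 0.05. Igsf21 stays between 1.62 and 1.93 and Nrxn2 probe 2 between -1.52 and -1.01, while Nrxn3 probe 1 crosses 0. In the rows of leading probes, the diamonds for the mean over probes and for the authors' table are values of the gene, and those of Nrxn2 (-0.25 and -0.079) are its only points below 0. The Nlgn1 points come from a probe not well above background.

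The genes around the neurexins were described with 12 lists of synaptic adhesion genes, 1 probe per gene. All 159 genes were on the arrays and 122 were well above background on each array. Of the 151 that are not members, 9 were higher and 9 lower in Wnt4hi at an unadjusted p below 0.05, where 5.02% and 5.53% of all genes and transcripts were called. The median difference was 0.066 over these 151 genes and 0.072 over all genes and transcripts. At the adjusted p of 0.05 (limma), 0 of the 151 were higher (0.0351% of all genes and transcripts) and 1 was lower, Kirrel (0.403%). Below, a list gene is called higher or lower where its unadjusted limma p was below 0.05, and its adjusted p is printed. Without Wnt4hi replicate 2, 13 of the 16 list genes named by the rule kept the unadjusted call, and Il1rap (-0.92), Nectin2 (-0.76) and Epb41l3 (1.02) lost it. The adjusted calls rest on all 6 arrays: with any 1 array left out, 0 genes and transcripts of the whole array were higher and 0 to 2 lower.

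**Figure D5:**
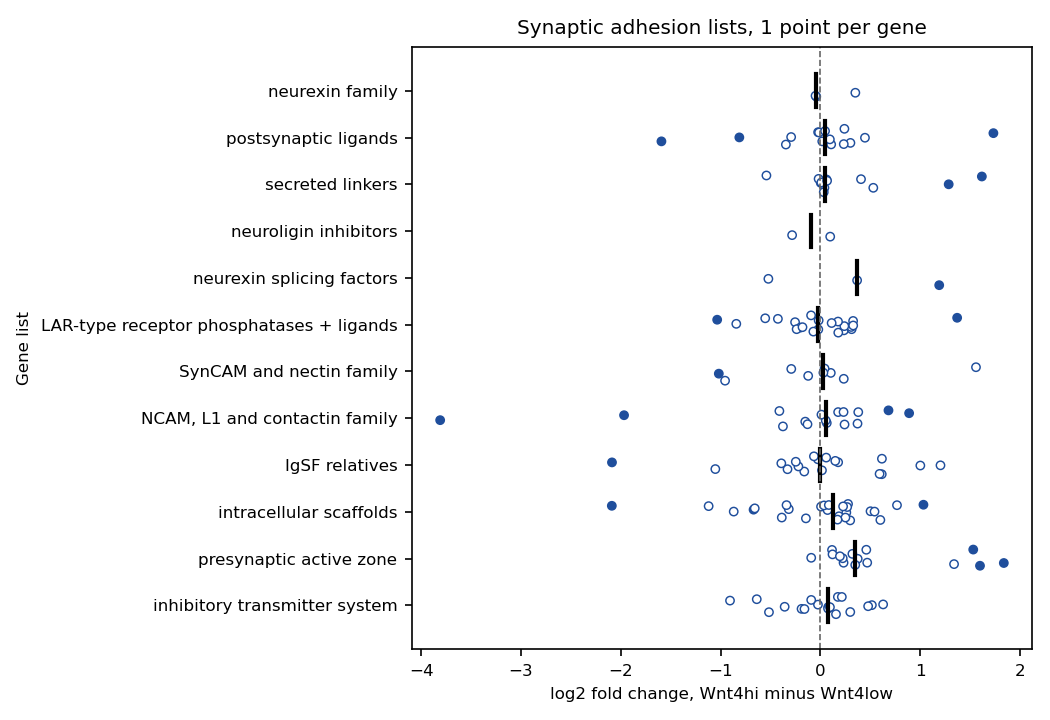
Difference in log2 intensity between Wnt4hi and Wnt4low for each gene of the 12 adhesion lists, with filled points for an unadjusted limma p below 0.05 and black bars at the list medians. Most list medians lie near 0, and those of the neurexin splicing factors (0.37, 3 genes) and the presynaptic active zone (0.35) lie highest. The point farthest to the left is St8sia4 (-3.81), whose probe was well above background on only 1 Wnt4hi array, so its size is uncertain.

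Neurexophilins are secreted glycoproteins that bind alpha neurexins, and 2 of the 4 were higher in Wnt4hi. Nxph3 read 9.92, 9.63 and 10.44 in Wnt4hi and 8.81, 8.77 and 8.56 in Wnt4low, a difference of 1.28 ± 0.23 (adjusted p = 0.0984). Nxph1 was well above background on all Wnt4hi arrays (7.59, 8.32 and 9.22) and on 0 Wnt4low arrays (6.44, 6.74 and 7.10). It was at least 1.97-fold higher in Wnt4hi, the mean Wnt4hi level over the lowest level called well above background on each Wnt4low array or the probe's own level where that was higher (adjusted p = 0.226). Nxph2 was at background level throughout, and Nxph4 differed by 0.03. The cerebellins and C1q-like proteins, which also bridge neurexins to their partners, held 0 genes past the unadjusted p among 8. Khdrbs3, an RNA-binding protein that regulates alternative splicing of neurexins, was higher by 1.19 ± 0.21 (adjusted p = 0.1), with 12.43, 11.71 and 11.93 against 10.69, 10.94 and 10.87. A second Khdrbs3 probe was well above background on only 1 array, and the mean over both probes was 0.55. Adgrl2, a latrophilin, was lower by 1.59 on the log2 scale (8.28, 6.82 and 8.29 against 9.31, 8.65 and 10.22, adjusted p = 0.373). It was well above background on 2 of 3 Wnt4hi arrays, and the difference was -0.76 in the authors' table. Lrrtm1 (adjusted p = 0.134) was also lower at the unadjusted threshold, but was well above background on only 1 of the 6 arrays.

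NCAM1 carries polysialic acid, a large sugar polymer that weakens adhesion and is added by the enzymes ST8SIA2 and ST8SIA4. St8sia4 read 6.06, 5.88 and 8.10 in Wnt4hi, where 1 of 3 arrays was well above background, and 10.72, 9.67 and 11.08 in Wnt4low. The difference was -3.81 ± 0.68 (adjusted p = 0.0979), and another St8sia4 probe, also well above background on 1 Wnt4hi array, differed by -2.30 ± 0.25 in the fit over all probes (adjusted p = 0.037). The size is uncertain, at -4.88 to -2.87 over the settings tried, and without Wnt4hi replicate 4 the first probe was well above background on 0 Wnt4hi arrays, so no difference is given. St8sia2 differed by -0.13 (adjusted p = 0.883). In the same family Chl1, a close homolog of L1, was lower (9.46, 8.01 and 9.44 against 11.24, 9.93 and 11.64, difference -1.97 ± 0.58, adjusted p = 0.285; another probe, well above background on 1 Wnt4hi array, differed by -1.34, and one more was so on 0 Wnt4hi arrays; the mean over the probes was -1.30), and Nfasc was higher by 0.89 ± 0.30 (adjusted p = 0.369) with overlapping arrays and by 0.50 over the mean of its probes. Kirrel, a nephrin-like adhesion protein, read 8.35, 8.81 and 8.84 in Wnt4hi and 10.79, 11.01 and 10.47 in Wnt4low, a difference of -2.09 ± 0.21 (adjusted p = 0.0336). A second Kirrel probe, well above background on 2 Wnt4hi arrays, differed by -1.68 ± 0.90 without passing (adjusted p = 0.601 in the limma fit over all probes). Endothelial sums were lower on the same 3 Wnt4hi arrays (5620 to 8877 against 40200 to 73681), as were those of mesenchyme and pericyte markers (40906 to 86380 against 104352 to 143756). The sums of Schwann and neural crest markers were 8944 to 9696 against 11909 to 14909, with 3 of 11 genes lower, and 4 of 11 neuron markers were lower although their sums overlapped (20217 to 28161 against 20492 to 24843). Among leukocyte markers 3 of 10 genes were lower and among erythroid markers 2 of 5, both with overlapping sums. At the unadjusted threshold 5.53% of all genes and transcripts were lower. The part of all these cells in the levels of Adgrl2, St8sia4, Chl1, Kirrel, Shank3 and Nrxn2 probe 2 was not tested.

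In the family of Cadm1, Nectin2 was the only gene of 9 past the unadjusted threshold (adjusted p = 0.461) and was lower by 1.02 on the log2 scale with overlapping arrays. A second Nectin2 probe, well above background on all 6 arrays, differed by -0.14, and the mean over both probes (-0.58) lost the call. Nectin3 differed by 1.56 without passing (adjusted p = 0.659). Among the receptor phosphatases that organise presynaptic terminals, Ptprf (LAR) was higher, with 11.31, 10.69 and 10.64 against 8.82, 9.66 and 10.05 (difference 1.37 ± 0.36, adjusted p = 0.224), whereas Ptprd (-0.25) and Ptprs (-0.43) did not pass. Il1rap, a ligand of this group, was lower by 1.03 on the log2 scale (adjusted p = 0.365) with overlapping arrays, but was well above background on only 1 of 3 Wnt4hi arrays. Its other probes were each well above background on 1 of the 6 arrays, and the mean over its probes (-0.60) lost the call.

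Inside the cell, the presynaptic active zone list held 14 of 15 genes with a difference above 0, a median of 0.35 and 3 genes that were higher. Of all 45616 genes and transcripts, 28950 (63.5%) had a difference above 0 and 5.02% were higher at the unadjusted threshold. Pclo, an active zone scaffold, read 12.33, 11.57 and 11.10 in Wnt4hi and 9.23, 10.45 and 9.81 in Wnt4low (difference 1.84 ± 0.42, adjusted p = 0.173). A second Pclo probe, well above background on all 6 arrays, differed by 0.41 without passing, one more was so on 2 Wnt4hi and 0 Wnt4low arrays, and the mean over the probes was 1.01. Rimbp2, which links RIM proteins to calcium channels, read 11.23, 12.43 and 12.26 against 10.00, 10.86 and 10.47 (1.53 ± 0.38, adjusted p = 0.206), and Unc13b, a priming factor for secretory vesicles, 10.51, 9.60 and 10.58 against 7.76, 9.08 and 9.05 (1.60 ± 0.45, adjusted p = 0.261). For these 3 genes, which were named for passing the unadjusted threshold, each Wnt4hi array was above each Wnt4low array. The same held for 4359 of all 45616 genes and transcripts. None of the 3 had an adjusted p below 0.05. Bsn, the relative of Pclo, differed by 1.34 without passing (adjusted p = 0.651). On the list of intracellular scaffolds Epb41l3, which binds the tail of CADM1, was higher by 1.03 ± 0.36 (adjusted p = 0.382), a call that was lost with the mean over its probes (1.03), the processed signal (0.82) and the fixed replicate block (0.62). Shank3, a postsynaptic scaffold, was lower (8.39, 8.62 and 8.45 against 11.67, 10.12 and 9.93, difference -2.09 ± 0.46, adjusted p = 0.161). Its other probes differed by -1.87 (adjusted p = 0.047 in the fit over all probes, well above background on 2 of 3 Wnt4hi arrays) and by -1.02 (adjusted p = 0.552), and the mean over the probes was -1.66. Lin7a (adjusted p = 0.405) was lower as well but was well above background on only 1 array. The list of the inhibitory transmitter system held 0 of 18 genes past the unadjusted p (limma), with a median of 0.077. Of the 16 list genes named by the rule, 11 kept the unadjusted call with each array left out. The others, Adgrl2, Il1rap, Nectin2, Nfasc and Epb41l3, also lost it with the methods' t-test. The call of Adgrl2 (-1.97 to -1.10 with 1 array left out) was lost without Wnt4hi replicate 3 or Wnt4low replicate 1 or 4, and that of Il1rap (-1.34 to -0.84) without Wnt4hi replicate 2 or 4 or Wnt4low replicate 1 or 3. Nectin2 (-1.48 to -0.76) kept it only without Wnt4hi replicate 4. The call of Nfasc (0.66 to 1.14) was lost without Wnt4hi replicate 3 or 4 or Wnt4low replicate 1 or 4, and that of Epb41l3 (0.63 to 1.36) without any Wnt4hi array or Wnt4low replicate 3. The marker sums of some other endocrine cells were also higher on the Wnt4hi arrays, at 15978 to 21920 against 3462 to 6922 for epsilon cells (1 of 2 genes higher), 55552 to 77692 against 37600 to 43936 for PP cells (1 of 3) and 12477 to 15404 against 7761 to 9820 for endocrine progenitors (2 of 5). Delta cell sums overlapped, at 22387 to 27336 against 25723 to 29665, with 2 of 5 genes higher and 2 lower. Beside these marker counts, 5.02% of all genes and transcripts were higher and 5.53% lower at the unadjusted threshold. The part of these cells, and of the beta and alpha cells given above, in the levels of the active zone genes was not tested.

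The genes whose pattern over the 6 arrays was most like that of Igsf21 were named by Pearson correlation among 4732 genes that were well above background on each array and varied by an SD of at least 0.5. Since Igsf21 was chosen for its difference, these genes are given without a test. They were Rasgrf2, a guanine nucleotide exchange factor (r = 0.990), Cadps, a priming factor for dense-core vesicles (r = 0.986), Sgsm1 (r = 0.984), the predicted gene Gm20300 (r = 0.984) and Isl1, an endocrine transcription factor (r = 0.983). Cadps read 11.92, 11.90 and 12.14 in Wnt4hi and 10.01, 10.52 and 10.36 in Wnt4low. Isl1 read 11.45, 11.49 and 11.35 against 10.22, 10.48 and 10.29. With 6 arrays in 2 populations, these correlations mostly restate that each gene was higher in Wnt4hi, and the points share the sorted pools and the arrays.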

How the data were processed

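RNA of sorted cells was amplified, labelled with Cy5 and hybridised to 1-color SurePrint G3 Mouse v2 arrays. For each array the authors deposited the intensity and local background of every spot (Feature Extraction 12.0.1.1 in the file headers and 9.1 in the submitters' processing notes), and a table of normalized log2 values per probe in which the probes of a gene may be averaged. After the study's methods, median intensities were corrected with normexp (offset 50) and log2 values were quantile-normalized between arrays (R 4.3.3, limma 3.58.1). Outlier spots were left out, a step added here. Spots of a probe were averaged to 56605 probes. Names came from RefSeq accessions (32994 of 35886 RefSeq probes matched a GRCm38.p6 table, used for names only).

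Members were read from a fit over all probes, and lists from a fit with the probe of highest mean per gene, both with lmFit and eBayes and Benjamini-Hochberg adjustment over all features. A probe with no array well above background in a population was given as a bound or without a difference. The members, lists and rules for named genes (per list, all adjusted calls and the 3 largest changes with an unadjusted p below 0.05 that were well above background on the higher arrays; the 5 genes most like Igsf21) were chosen with earlier results of these data known. Lrrtm1, Lin7a, Nectin3, Bsn, Ptprd, Ptprs, St8sia2, Nxph2 and Nxph4 were named after their values were seen. Intervals are at 95%. All 6 arrays shared 1 slide and 1 scan. Each array is 1 pool, and the labels do not say whether both populations came from the same pups. The calculation was tested on simulated data.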

Additional observations from a re-analysis of the deposited data

How the results depend on the processing

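Over 19 alternatives, 457 of 517 recomputed differences kept their direction and side of the unadjusted threshold (0.05) or, for Igsf21, stayed within its spread. A further 46 lost the call, 6 gained it and 7 changed sign. The fold of Igsf21 moved beyond its spread for the processed signal scaled to its 75th percentile (1.93). The 457 include 18 values of Igsf21, which was chosen for its difference. Some settings, such as the methods' t-test, leave its difference unchanged by design, so the count is no measure of its stability. Nrxn3 probe 1 changed sign with the processed signal (0.026), with the replicate block as a fixed term (0.084), and without Wnt4hi replicate 4 (0.17) or Wnt4low replicate 1 (0.19), from -0.20 to 0.19 over the arrays left out. The mean over all probes of a gene had another sign than probe 1 for Nrxn3 (0.016) and Nrxn2 (-0.25), as had the authors' table for Nrxn2 (-0.079). Of the 7 members other than Igsf21, each by its brightest probe, 1 was higher at the unadjusted p (Ncam1), but 2 with the mean over probes (Ncam1 and Nlgn2), 0 with the methods' t-test (the general test of the study, which names limma for its arrays), 0 with the fixed replicate block and 0 to 1 with 1 array left out; in the authors' table it was Nlgn2. Members lower numbered 0, but 1 with the fixed replicate block (Cadm1) and 0 to 1 with 1 array left out. List genes that are not members and were lower numbered 9, but 5 with the methods' t-test. Genes and transcripts past the adjusted p, 16 higher and 184 lower, became 27 higher with median centring, 77 and 427 with the filter on dim probes, 58 and 348 in the authors' table, 0 and 0 with the methods' t-test, 0 and 0 with the fixed replicate block, 25 higher with the random replicate block, and 0 higher and 0 to 2 lower with 1 array left out. The filter tests fewer genes, and other causes were not tested. Labels share only the replicate numbers 3 and 4, and deviations of same-numbered arrays correlated at -0.05 and 0.20 over 28878 genes, so the numbers were not taken to pair samples. The fixed replicate block takes its differences from the arrays numbered 3 and 4 alone, so its calls rest on fewer arrays. Weak signal over background limits Nlgn1, Nrxn3 probes 3 and 4, Nrxn2 probe 3 and Ncam1 probe 4.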
